A study of Bos taurus with 8 samples.

Results

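Toll-like receptors are the membrane sensors of microbial products, and here all probes that the scanner files name TLR1 to TLR10 were followed on bovine gene expression arrays. These were 29 probes of 10 genes, of 43653 probes that are not controls. TLR1, TLR2, TLR4, TLR5, TLR6 and TLR10 act mainly at the cell surface, where they meet lipopeptides, lipopolysaccharide and flagellin of bacteria. TLR3, TLR7, TLR8 and TLR9 act in endosomes and meet nucleic acids. Ligand binding brings adaptors such as MYD88 or TICAM1 to the receptor, and kinases then release NF-kB and IRF transcription factors, which switch on cytokines and chemokines. In the udder, milk-secreting epithelial cells are among the first cells to meet mastitis bacteria, and TLR2 and TLR4 are the family members most often studied there.

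RNA came from primary bovine mammary epithelial cells (BMECs) of 1 lactating Holstein cow at the fifth passage. The 3 arrays of the EEF1D-1357 group and the 3 of the EEF1D-1893 group carried RNA from cells with a short hairpin RNA (shRNA) against EEF1D, labelled as EEF1D knockdown. The 2 control arrays carried RNA from cells labelled as without shRNA. EEF1D encodes a subunit of translation elongation factor 1. The labels name no hairpin without a target, so carrying a hairpin and losing EEF1D cannot be told apart. Whether replicates came from separate cultures is not stated, and the p-values then speak only of variation among these arrays, which may be technical.

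Values are log2 spot intensity minus the 75th percentile of the same array, called the scaled log2 signal, so that a value of 0 is the brightness that 75% of the array's probes do not exceed. Per array, 60.6% to 71.5% of all probes stood well above background, the 75th percentile lay between 1265 and 2078 intensity units, and the number of arrays limits the precision. EEF1D itself, by its brightest probe, had scaled log2 signals of 5.10 to 6.0 on the 6 shRNA arrays, against 7.13 and 6.15 on control replicates 1 and 2, a log2 fold change of -0.89 (SE 0.32, limma adjusted p = 0.219), with every shRNA array below both controls. The epithelial label fits the signals of KRT7, KRT8, KRT18, KRT19 and EPCAM, which were among the 7 of 8 luminal markers well above background on all 8 arrays. Of 20 leukocyte markers 12 had a tested probe, and their mean scaled log2 signal was -1.72 to -1.42 with EEF1D-1357, -1.57 to -1.34 with EEF1D-1893 and -1.83 to -1.0 in the controls. The fibroblast list, with all 8 genes tested, averaged -2.72 to -2.30 with EEF1D-1357, -2.59 to -0.54 with EEF1D-1893 and -1.71 to -0.96 in the controls. All EEF1D-1357 arrays thus lay below both controls. This mean covers genes on both sides of 0, and 4 of the 8 were well above background on all 8 arrays. VIM was bright, at 6.73 to 7.27 on the shRNA arrays and 6.83 to 7.84 in the controls, with all 5 of its probes on every array. COL1A2 and THY1 were well above background on 4 arrays each. Marker probes of these types stood mostly below control for both shRNAs, 15 of 17 luminal, 10 of 11 basal and myoepithelial, 34 of 39 fibroblast, 13 of 16 leukocyte and 2 of 3 endothelial ones, against 55.7% of all probes. Among the basal and myoepithelial markers MYLK, the myosin kinase of contractile cells, stood at a log2 fold change of -3.50 (adjusted p = 0.153). Every shRNA array lay below both controls. OXTR, the oxytocin receptor, was well above background on the 2 controls alone, with -7.14 to -5.67 on the shRNA arrays. It entered the test through the controls, so no fold is read from it. The count of basal and myoepithelial probes below control and the mean of that list include this OXTR probe. That list averaged 0.66 to 1.11 with EEF1D-1357, 0.040 to 1.92 with EEF1D-1893 and 1.71 to 2.41 in the controls, and the luminal list 5.07 to 5.31, 5.2 to 5.35 and 5.33 to 5.90 in the same groups. Of the 4 probes for PTPRC, the common leukocyte antigen, 1 was well above background on all arrays and 2 on none. The leukocyte mean also covers genes on both sides of 0. With EEF1D-1357, EEF1D-1893 and in the controls CD4 averaged 1.94, 2.20 and 2.22, and the brightest PTPRC probe 1.96, 1.27 and 1.67. TYROBP averaged -3.55, -3.35 and -3.28 in the same groups. The part of cell makeup in the receptor signals was not tested, and fewer cells of a type cannot be told apart from less RNA per cell.

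Each hairpin shared a slide with 1 control: EEF1D-1357 with control replicate 2 on slide 1, and EEF1D-1893 with control replicate 1 on slide 2. The controls stood apart from each other: no probe of 30702 tested passed an adjusted p of 0.05 for both shRNAs against control, 97 passed without control replicate 1 and 6995 without control replicate 2. For this reason each receptor below is given array by array and within its slide.

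The family split by detection. Of the 29 probes, 9 were well above background on all 8 arrays, 17 on at least 1 and 12 on none, against 58.4% of all probes on all 8 arrays and 22.5% on none. By the names in the scanner files the 9 belonged to TLR2, TLR3, TLR4, TLR5 and TLR6. The single TLR1 probe, both TLR8 probes and all 4 TLR10 probes were not well above background on any array, and neither were the second probes of TLR5, TLR7 and TLR9. To enter the test a probe had to exceed background clearly on 2 or more arrays, which 15 of the 29 receptor probes and 70.3% of all probes did. These 15 carried 7 gene names. Brightness depends on each probe's own binding, so the levels of different receptors are not ranked against each other.

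**Figure D1:**
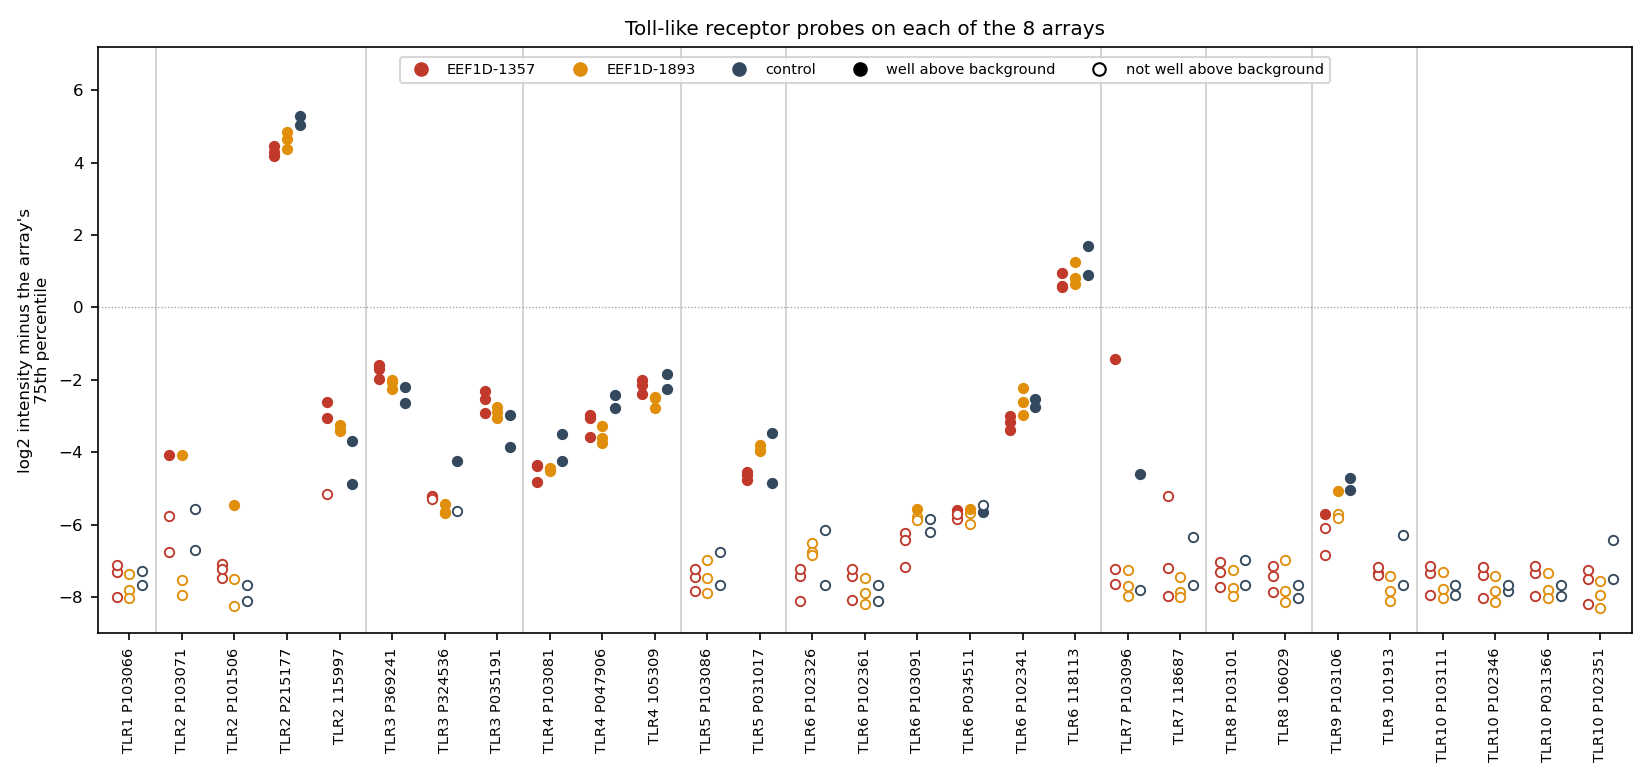
Scaled log2 signal (vertical axis) of each of the 29 receptor probes (horizontal axis) on every array, with EEF1D-1357 left, EEF1D-1893 in the middle and control right for each probe. Filled points were well above background and open points were not. TLR1, TLR8 and TLR10 show open points alone, 9 probes are filled on all 8 arrays, and TLR2 has both a bright probe (A_73_P215177, 4.18 to 5.30) and dim ones.

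None of the 15 receptor probes passed the test across all probes in any comparison (limma, Benjamini-Hochberg adjusted p; 0% of 30702 probes were called in each). For both shRNAs against control 11 of the 15 stood below control (55.7% of all probes), with a smallest adjusted p of 0.143. For EEF1D-1357 and for EEF1D-1893 alone 10 of 15 stood below (57% and 52.4% of all probes), and 7 of 15 stood lower with EEF1D-1357 than with EEF1D-1893 (57.5% of all probes). At an unadjusted p under 0.05, 2 receptor probes were higher and 4 lower, where 7.98% of all probes were higher and 10.4% lower. The 2 were TLR3 probes, and the 4 were 1 TLR2 probe, 2 TLR4 probes and the TLR9 probe. For EEF1D-1357 against control it was 2 higher and 4 lower, where 6.95% of all probes were higher and 10.6% lower. For EEF1D-1893 against control it was 0 higher and 4 lower, where 7.06% were higher and 7.93% lower. These comparisons share both control arrays. The balance over all probes depends on the scaling: for both shRNAs 2450 were higher and 3208 lower at that limit by the 75th percentile, and 3296 higher and 2261 lower by the median, whereas 11 of the 15 receptor probes stood below control by either. Without control replicate 2, where the median of all probes stood at -0.17, 2 receptor probes passed higher and 4 lower after adjustment, or 13.3% and 26.7% of the 15, where 9.43% of all probes were higher and 13.4% lower. Between the hairpins 1 of the 15 had an unadjusted p under 0.05, a TLR6 probe lower with EEF1D-1357 than with EEF1D-1893, where 3.71% of all probes were lower. Groups did not overlap for both shRNAs against control in 4 receptor probes, all lower, where 9.91% of all probes were lower and 8.19% higher in that way. With EEF1D-1357 against control 2 were apart above and 5 below (13.3% and 18.9% of all probes), with EEF1D-1893 1 above and 5 below (14% and 15.5%). Between the hairpins 3 were apart with EEF1D-1357 higher and 2 with it lower (6.99% and 13.1% of all probes).

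Among the 9 probes that every array measured, 2 stood above and 7 below control for both shRNAs, with a median log2 fold change of -0.32. Over all 25411 tested probes measured on every array the median was -0.03, and 53.3% stood below. All 6 shRNA arrays lay below both controls in 3 of the 9, where 10% of those 25411 probes did so. In 0 of the 9 did all 6 lie above, where 9.5% of all did. The probes of 1 gene share a transcript, so the 9 probes carry 5 gene names. The TLR2 probe and both TLR6 probes among the 9 each match at least 1 probe of another name. Both TLR6 probes also lie beside the TLR1 probe, so the gene that these probes read is uncertain.

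**Figure D2:**
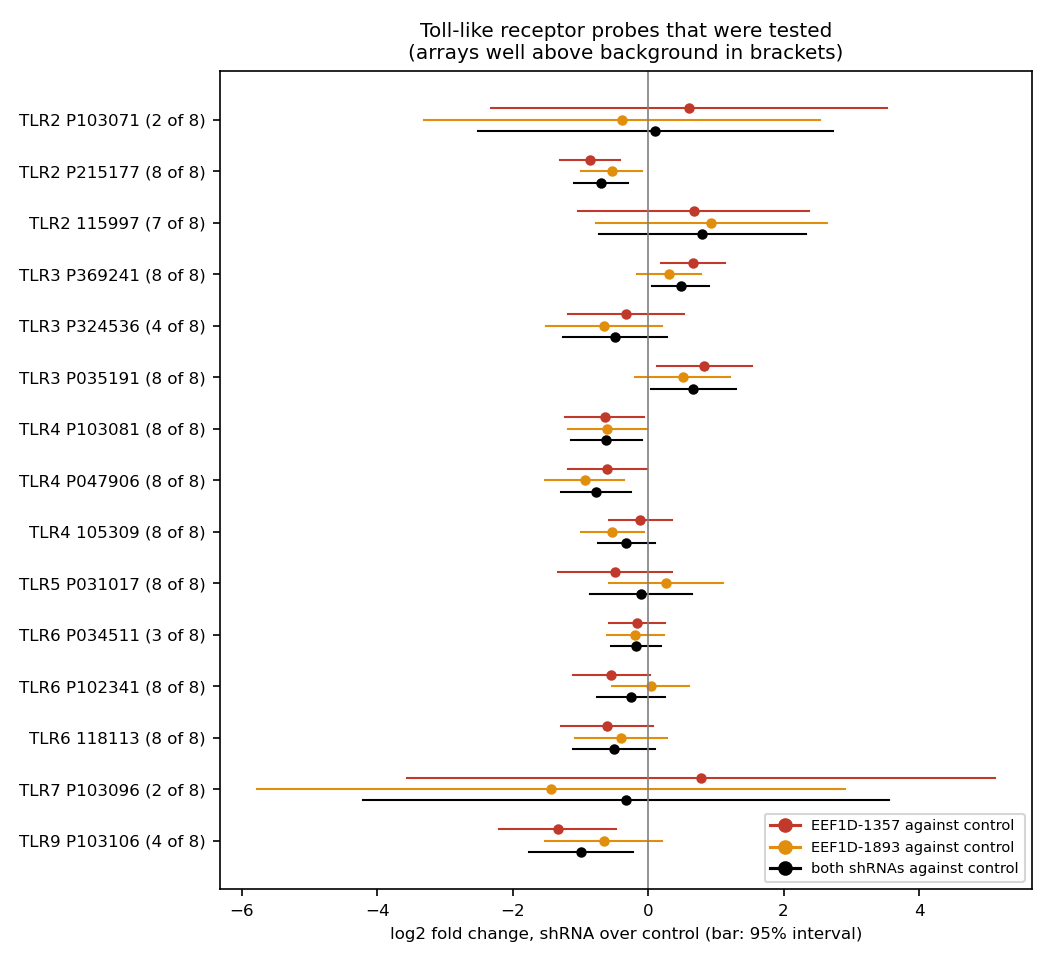
Log2 fold change of shRNA over control (horizontal axis) with 95% intervals for the 15 tested receptor probes, EEF1D-1357 in red, EEF1D-1893 in orange and both in black, with the number of arrays well above background in brackets. The intervals of the TLR4 probes A_73_P103081 and A_73_P047906, of TLR2 A_73_P215177 and of TLR9 A_73_P103106 for both shRNAs lie below 0, those of TLR3 A_73_P369241 and A_73_P035191 lie above it, and none passed after adjustment.

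TLR4 recognises lipopolysaccharide of Gram-negative bacteria and all 3 of its probes were measured on every array and stood below control. Its 3 probes lie along the transcript on chromosome 8 (plus strand, Btau_3.1), at 112435078 to 112435137 for A_73_P103081, at 112437026 to 112437085 for A_73_P047906 and at 112437692 to 112437751 for A_73_105309. The first 2, whose sequences are printed to show that they hold different stretches of the gene, read as follows.
TLR4 A_73_P103081: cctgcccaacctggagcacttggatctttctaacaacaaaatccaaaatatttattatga
TLR4 A_73_P047906: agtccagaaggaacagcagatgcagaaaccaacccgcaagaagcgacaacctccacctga

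A_73_P047906 had scaled log2 signals of -2.98, -3.05 and -3.59 with EEF1D-1357 and of -3.75, -3.60 and -3.27 with EEF1D-1893, against -2.42 and -2.78 in control replicates 1 and 2. Every shRNA array lay below both controls. Both shRNAs together stood at a log2 fold change of -0.77 (SE 0.22), or 58.7% of control (adjusted p = 0.173). EEF1D-1357 alone stood at -0.60 (SE 0.25) and EEF1D-1893 alone at -0.93 (SE 0.25).

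A_73_P103081 had -4.35, -4.38 and -4.81 with EEF1D-1357 and -4.52, -4.47 and -4.44 with EEF1D-1893, against -3.51 and -4.24 in the controls. Again every shRNA array lay below both controls, though control replicate 2 lay close above the EEF1D-1357 arrays. The log2 fold change was -0.62 (SE 0.22), or 65.1% of control (adjusted p = 0.222). Its size hung on the controls: it was -0.25 without control replicate 1 and -0.99 (adjusted p = 0.0250) without control replicate 2.

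A_73_105309, furthest downstream, had -2.13, -2.0 and -2.38 with EEF1D-1357 and -2.78, -2.47 and -2.49 with EEF1D-1893, against -2.26 and -1.85 in the controls. The EEF1D-1893 arrays lay below both controls and below every EEF1D-1357 array, whereas the EEF1D-1357 arrays overlapped the controls. For both shRNAs the log2 fold change was -0.32 (SE 0.18, adjusted p = 0.371), and EEF1D-1357 stood 0.41 log2 units over EEF1D-1893 (SE 0.18, adjusted p = 0.775). Hairpin and slide are confounded here, and against the control of its own slide each hairpin stood at -0.32. For EEF1D-1357 against control the log2 fold change was -0.12 (SE 0.20) with a 95% interval of -0.58 to 0.35, and its sign turned without control replicate 2 (0.087).

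Within the slides all 3 TLR4 probes were below their control on both. On slide 1 EEF1D-1357 stood at -0.27, -0.42 and -0.32 against control replicate 2 for A_73_P103081, A_73_P047906 and A_73_105309. On slide 2 EEF1D-1893 stood at -0.97, -1.11 and -0.32 against control replicate 1 for the same probes. With slide as a block, EEF1D-1893 is set against control replicate 1 alone, because each hairpin lies on 1 slide. The log2 fold change of A_73_P103081 was then again -0.97, where the median of all probes stood at -0.15. For the TLR3 probe A_73_P324536 it was -1.35. The p-values of that fit hold no variation among controls and are not read here. Across the 8 arrays A_73_P103081 and A_73_P047906 correlated with r = 0.85, A_73_P047906 and A_73_105309 with r = 0.71, and A_73_P103081 and A_73_105309 with r = 0.29.

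TLR3, the endosomal receptor for viral RNA duplexes that signals through TICAM1, had the only 2 probes above control among the 9 that every array measured. Its probes lie on chromosome 27 (plus strand, Btau_3.1), A_73_P369241 at 17492334 to 17492393 near the start of the transcript, A_73_P324536 at 17494234 to 17494293 and A_73_P035191 at 17500312 to 17500371 further downstream. The 2 probes measured on every array are shown because they carry the result from opposite ends of the transcript.
TLR3 A_73_P369241: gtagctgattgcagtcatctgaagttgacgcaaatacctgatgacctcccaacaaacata
TLR3 A_73_P035191: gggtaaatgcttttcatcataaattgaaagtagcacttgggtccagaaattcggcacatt

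A_73_P369241 had scaled log2 signals of -1.59, -1.71 and -1.97 with EEF1D-1357 and of -2.27, -2.05 and -2.0 with EEF1D-1893, against -2.65 and -2.19 in the controls. All EEF1D-1357 arrays lay above both controls and above all EEF1D-1893 arrays, whereas 1 EEF1D-1893 array lay below control replicate 2. For both shRNAs together it had a log2 fold change of 0.49 (SE 0.18), or 140% of control (adjusted p = 0.229). It was 0.66 (SE 0.20) with EEF1D-1357 and 0.31 (SE 0.20) with EEF1D-1893, 0.26 for both without control replicate 1 and 0.71 (adjusted p = 0.0435) without control replicate 2. EEF1D-1357 stood 0.35 over EEF1D-1893 (SE 0.18, adjusted p = 0.775), a difference that turned to -0.11 with slide as a block.

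A_73_P035191 had -2.31, -2.54 and -2.91 with EEF1D-1357 and -3.06, -2.89 and -2.76 with EEF1D-1893, against -3.87 and -2.96 in the controls. All EEF1D-1357 arrays lay above both controls, and 2 of 3 EEF1D-1893 arrays did. Against control the probe stood at a log2 fold change of 0.67 (SE 0.27), or 159% of control (adjusted p = 0.249). It was 0.22 without control replicate 1 and 1.12 (adjusted p = 0.0289) without control replicate 2. Both probes ran together over the 8 arrays (r = 0.97), and both stood above control within each slide, by 0.43 and 0.37 for EEF1D-1357 on slide 1 and by 0.54 and 0.97 for EEF1D-1893 on slide 2.

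The TLR3 probe between them did not follow. A_73_P324536 was well above background on 4 arrays, 1 of EEF1D-1357, 2 of EEF1D-1893 and control replicate 1. It had -5.23, -5.25 and -5.31 with EEF1D-1357 and -5.66, -5.43 and -5.68 with EEF1D-1893, against -4.23 and -5.64 in the controls. Its log2 fold change of -0.49 (SE 0.33, adjusted p = 0.447) came from control replicate 1: without it the value was 0.21, without control replicate 2 it was -1.19 (adjusted p = 0.0131), and within the slides it was 0.38 for EEF1D-1357 and -1.35 for EEF1D-1893. A further probe that the files name TC433095 but place downstream of the TLR3 probes, at 17500588 to 17500647, was well above background on all arrays. It had -3.30, -3.36 and -3.64 with EEF1D-1357 and -4.18, -3.58 and -3.65 with EEF1D-1893, against -5.44 and -4.17 in the controls. Its log2 fold change of 1.19 (SE 0.34, adjusted p = 0.169) stood on the side of the outer TLR3 probes, with 1 EEF1D-1893 array level with control replicate 2.

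TLR2 recognises bacterial lipopeptides together with TLR1 or TLR6, and its 4 probes disagreed. They lie in order along the minus strand of chromosome 17 (Btau_3.1), A_73_P103071 at 4282730 to 4282789, A_73_P101506 at 4282611 to 4282670, A_73_P215177 at 4282206 to 4282265 and A_73_115997 at 4281570 to 4281629. The first 2 hold gene sequence that matched no probe of another gene on the array, and they are shown because they were near background.
TLR2 A_73_P103071: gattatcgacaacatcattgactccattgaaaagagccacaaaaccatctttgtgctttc
TLR2 A_73_P101506: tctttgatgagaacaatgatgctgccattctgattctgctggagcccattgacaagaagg

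A_73_P103071 was well above background on 2 arrays, EEF1D-1357 replicate 1 (-4.07) and EEF1D-1893 replicate 3 (-4.09). The other arrays had -5.77 and -6.77 with EEF1D-1357 and -7.53 and -7.94 with EEF1D-1893, against -6.71 and -5.57 in the controls. Its log2 fold change of 0.11 had an SE of 1.11 and a 95% interval of -2.51 to 2.73, so these arrays bound it only loosely, and it was -0.46 without control replicate 1. No control array was well above background, and the other EEF1D-1357 arrays lay below control replicate 2, so no direction is read from it. A_73_P101506 was well above background on EEF1D-1893 replicate 2 (-5.46) and on no other array, and it was not tested.

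A_73_P215177 was bright on every array. Its scaled log2 signals were 4.18, 4.28 and 4.46 with EEF1D-1357 and 4.38, 4.84 and 4.66 with EEF1D-1893, against 5.30 and 5.03 in the controls. Every shRNA array lay below both controls. At 61.6% of control, both shRNAs together had a log2 fold change of -0.70 (SE 0.17, adjusted p = 0.143), made up of -0.86 (SE 0.19) for EEF1D-1357 and -0.54 (SE 0.19) for EEF1D-1893. The within-slide values were close to each other, at -0.72 for EEF1D-1357 on slide 1 and -0.67 for EEF1D-1893 on slide 2, and without control replicate 2 the adjusted p was 0.0380. Averaging it with the other TLR2 probes gave 0.071.

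This bright probe was the receptor probe with the most matches elsewhere. A search of all probe sequences against each other placed it beside 5 probes of other names, and no reading frame was open over its 60 bases. Of the 29 receptor probes 3 had such a match, as did 5.86% of all probes. Its closest matches were the probe for NEPN on chromosome 9, with 94.4% identity over 54 bases on the opposite strand, and the probe for LOC511936, with 87.3% identity over 55 bases on the same strand. Bases 6 to 35 of the TLR2 probe are shown with the bases opposite them. In the TLR2 line, capitals mark bases found in both other probes, and in the other lines they mark bases shared with TLR2. The NEPN probe is written as its reverse complement.
TLR2 A_73_P215177: AGAGGATGAGATGGTTGGATGGCtTCACtg
NEPN A_73_P504858: AGAGGATGAGATGGTTGGATGGCaTCACcG
LOC511936 A_73_121245: AGAGGATGAGATGGTTGGATGGCaTCACca

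The matching probes on the same strand stood below control as well. The LOC511936 probe had a log2 fold change of -0.62 for both shRNAs and the TC488084 probe A_73_P473168, matching over 28 bases, had -0.97, and in both every shRNA array lay below both controls. The C3H1orf109 probe A_73_P305756, also matching over 28 bases, had -0.43. Over the 8 arrays they correlated with the TLR2 probe at r = 0.94, 0.86 and 0.80. The NEPN probe, which reads the opposite strand, had 0.10 and r = -0.53, and the probe CK966691, also on the opposite strand, was well above background on 1 array. Whether other transcripts bind A_73_P215177 was not tested.

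The last TLR2 probe, A_73_115997, pointed the other way. It was well above background on 7 arrays, with -3.05, -2.61 and -5.17 with EEF1D-1357, where replicate 3 was the array not above background, and -3.39, -3.25 and -3.42 with EEF1D-1893, against -4.87 and -3.70 in the controls. All 5 other shRNA arrays lay above both controls. The log2 fold change was 0.80 (SE 0.65, adjusted p = 0.531), with 0.21 without control replicate 1 and 1.39 without control replicate 2. A_73_P215177 and A_73_115997 correlated at r = -0.48 over the 8 arrays. A probe named MTMR2 on chromosome 15, found by a search for accessions of the receptors, had a log2 fold change of -0.23 (SE 0.16, adjusted p = 0.462). Which receptor the accession belongs to was not checked.

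**Figure D3:**
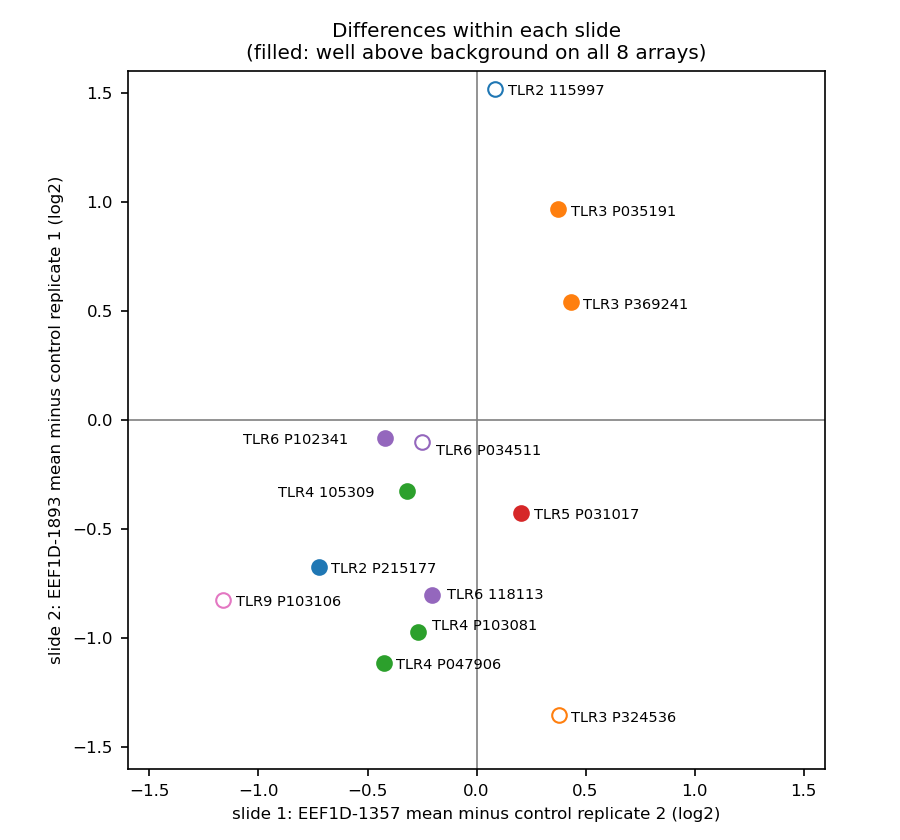
Difference of the EEF1D-1357 mean from control replicate 2 on slide 1 (horizontal axis, log2) against the difference of the EEF1D-1893 mean from control replicate 1 on slide 2 (vertical axis, log2) for the 13 receptor probes that 3 or more arrays measured above background. Points are filled where all 8 arrays were well above background. TLR4, TLR6, TLR9 and TLR2 A_73_P215177 lie at the lower left, TLR3 A_73_P369241 and A_73_P035191 and TLR2 A_73_115997 at the upper right, and TLR5 A_73_P031017 and TLR3 A_73_P324536 at the lower right.

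The slides give comparisons with no array in common. Of the 15 tested receptor probes 8 were below control on both slides and 4 above on both, where 31.0% of all 30702 tested probes were below on both and 23.2% above on both. The 4 include TLR2 A_73_P103071, at 0.029 on slide 1 and 0.19 on slide 2. That probe passed the filter through shRNA arrays alone, so its place among the 4 is not read as a direction. Of the 9 probes measured on every array 6 were below on both, 2 were above on both and TLR5 A_73_P031017 differed in sign. Each of these differences rests on 1 control array.

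TLR6, like TLR1, pairs with TLR2, and TLR1, TLR6 and TLR10 form a cluster that spans 35.9 kb of the minus strand of chromosome 6 between the outermost probes. Probes named TLR6 lay in 2 places along it. A_73_P102326 at 60374974 to 60375033 and A_73_P103091 at 60373101 to 60373160 lie 17.7 and 15.8 kb from the TLR1 probe A_73_P103066 (60357322 to 60357381). A_73_P034511, A_73_P102341, A_73_118113 and A_73_P102361 lie 1.56 to 2.06 kb downstream of the TLR1 probe instead, between 60355261 and 60355823. A_73_P034511 and A_73_P103091 each list accessions of both TLR6 and TLR1. All 3 tested TLR6 probes came from the group beside TLR1, so which of both genes they read cannot be told apart here. The sequence of A_73_P034511 is shown as the one of them with both accessions.
TLR6 A_73_P034511: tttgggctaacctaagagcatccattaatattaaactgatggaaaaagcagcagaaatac

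**Figure D4:**
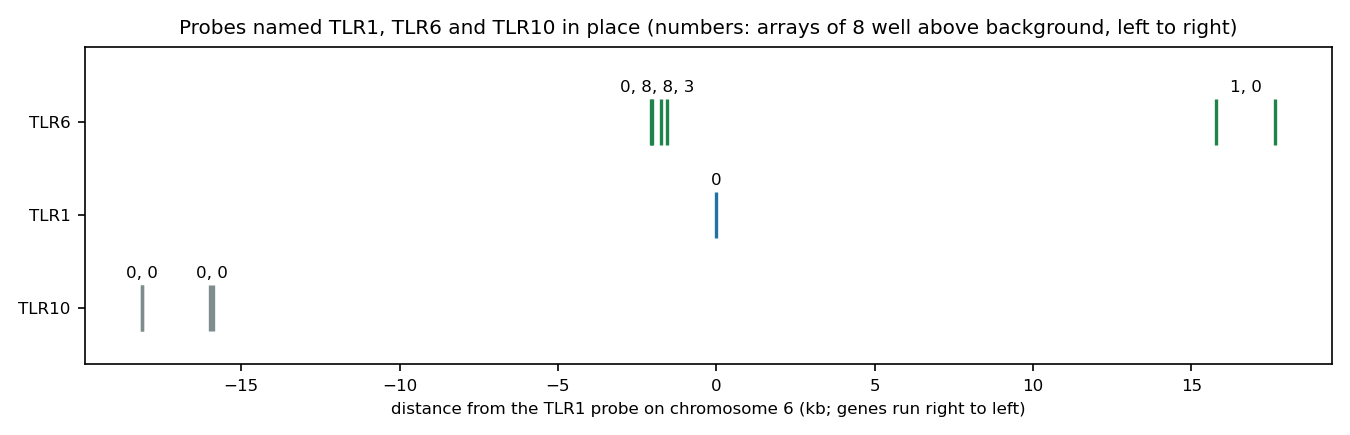
Probes named TLR6, TLR1 and TLR10 (rows) by distance in kb from the TLR1 probe on chromosome 6 (horizontal axis). The numbers above each cluster of ticks are the arrays of 8 on which each probe was well above background, from left to right. The probes on all 8 arrays lie beside the TLR1 probe, those at the far TLR6 end were on 1 and 0 arrays, and TLR1 and TLR10 were on 0.

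A_73_118113, bright on every array, had 0.57, 0.59 and 0.94 with EEF1D-1357 and 1.25, 0.64 and 0.82 with EEF1D-1893, against 1.70 and 0.91 in the controls. All shRNA arrays lay below control replicate 1 and 4 of 6 below control replicate 2. Its log2 fold change was -0.50 (SE 0.26, adjusted p = 0.341), and -0.11 without control replicate 1. It matched 4 probes of other names over 30 to 50 bases, and over the 8 arrays it correlated at r = 0.91 with the XR_083474 probe A_73_P130161 and at r = 0.87 with the unnamed probe A_73_P494523. With the other 2 it did not run together, at r = -0.35 with the same-strand ABO probe, which all arrays measured, and at r = 0.02 with the TC456365 probe, which 1 array did.

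A_73_P102341 had -3.17, -3.39 and -3.0 with EEF1D-1357 and -2.61, -2.97 and -2.23 with EEF1D-1893, against -2.52 and -2.77 in the controls. Every EEF1D-1357 array lay below every other array, and the EEF1D-1893 arrays lay on both sides of the controls. EEF1D-1357 stood at -0.58 against EEF1D-1893 (SE 0.22, unadjusted p = 0.0297, limma adjusted p = 0.775), and at -0.54 against control (SE 0.24, adjusted p = 0.298), whereas EEF1D-1893 stood at 0.04 against control (SE 0.24) with a 95% interval of -0.53 to 0.61. Against the control of its own slide EEF1D-1357 stood at -0.42 and EEF1D-1893 at -0.082. A_73_P034511, well above background on 1 array in each group, had a log2 fold change of -0.18 (SE 0.16, adjusted p = 0.574), which turned to 0.14 by quantile normalization. At the far TLR6 end A_73_P103091 was well above background on EEF1D-1893 replicate 3 (-5.58) alone and A_73_P102326 on no array.

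TLR5, the flagellin receptor, had 1 measured probe of 2. A_73_P031017, to which the files give no position, had -4.54, -4.77 and -4.62 with EEF1D-1357 and -3.93, -3.97 and -3.79 with EEF1D-1893, against -3.47 and -4.85 in the controls. The hairpin groups did not overlap, and the controls spanned both of them. EEF1D-1357 stood at -0.74 against EEF1D-1893 (SE 0.32, adjusted p = 0.775). The controls differed in the same direction as the slides: control replicate 2, on slide 1 with EEF1D-1357, was the lowest array and control replicate 1, on slide 2 with EEF1D-1893, the highest. Within the slides EEF1D-1357 stood at 0.21 and EEF1D-1893 at -0.43 against their control, and with slide as a block the hairpin difference turned to 0.63. For both shRNAs against control the log2 fold change was -0.11 (SE 0.32, adjusted p = 0.878), with 0.58 without control replicate 1 and -0.80 (adjusted p = 0.0200) without control replicate 2.

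TLR9, the endosomal receptor for unmethylated CpG DNA, was measured near background. Its probe A_73_P103106, at 49674068 to 49674127 on chromosome 22 (plus strand, Btau_3.1), was well above background in both controls and in 1 of 3 arrays of each hairpin group. It is shown as the receptor probe with the lowest log2 fold change for both shRNAs.
TLR9 A_73_P103106: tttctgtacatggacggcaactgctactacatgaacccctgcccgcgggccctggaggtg

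It had -5.71, -6.84 and -6.09 with EEF1D-1357 and -5.71, -5.07 and -5.82 with EEF1D-1893, against -4.71 and -5.05 in the controls. Every shRNA array lay below both controls, EEF1D-1893 replicate 2 by little. At 50.3% of control, both shRNAs together had a log2 fold change of -0.99 (SE 0.33, adjusted p = 0.202), made up of -1.33 (SE 0.37) for EEF1D-1357 and -0.65 (SE 0.37) for EEF1D-1893. Within the slides it was -1.16 for EEF1D-1357 and -0.82 for EEF1D-1893. The lowest of these signals are near background, where the scale of log2 differences depends on the background correction: after normexp correction and quantile normalization the value was -0.20. The second TLR9 probe was not well above background on any array.

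TLR7 and TLR8, receptors for RNA of viruses and bacteria, are neighbours on chromosome X. The TLR7 probe A_73_P103096 was well above background on 2 arrays, EEF1D-1357 replicate 3 at -1.43 and control replicate 2 at -4.62, and the other 6 arrays had -7.99 to -7.24. A spread that wide gave a log2 fold change of -0.33 with an SE of 1.65 (adjusted p = 0.934), which was -1.93 without control replicate 1 and 1.27 without control replicate 2. A probe that the files name TC392143 and place downstream of TLR7, at 82124219 to 82124278, was well above background on all arrays. It had -3.35, -2.02 and -3.04 with EEF1D-1357 and -3.27, -3.75 and -3.88 with EEF1D-1893, against -3.78 and -4.60 in the controls. Its EEF1D-1357 arrays lay above both controls (log2 fold change 1.39, SE 0.43, adjusted p = 0.210), whereas EEF1D-1893 stood at 0.56 (SE 0.43, adjusted p = 0.573) and both shRNAs at 0.97 (SE 0.39, adjusted p = 0.250), and it did not follow A_73_P103096. Neither TLR8 probe was well above background on any array, with scaled log2 signals of -8.13 to -6.98.

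The TLR10 probes and the TLR1 probe gave the same picture of background values. They had -8.30 to -6.44 and -8.04 to -7.12, with most of these values being surrogates that the scanner software sets for spots near background, so no difference between groups can be read from them. A second probe placed in TLR1, named AM086207 in the files, was also not well above background on any array.

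Other named genes whose brightest probe followed a receptor most closely over the 8 arrays were found among 10821 genes measured on every array. For TLR2 A_73_P215177 they were ATXN7L2 (r = 0.98), GPR161 (r = 0.97) and ACIN1 (r = 0.96), for TLR3 A_73_P369241 UBE2B (r = 0.98), LOC522004 (r = 0.96) and OPA1 (r = 0.96), and for TLR4 A_73_105309 OFD1 (r = 0.97), NPY5R (r = 0.96) and LOC520748 (r = 0.96). For TLR5 A_73_P031017 they were ABCG1 (r = 0.997), ACMSD (r = 0.99) and SEZ6 (r = 0.99), and for TLR6 A_73_118113 RPS10 (r = 0.99), ARG1 (r = 0.98) and SND1 (r = 0.98). With 8 arrays that share their slides and controls and so many genes to choose from, these values describe likeness on these arrays.

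The proteins that serve the receptors were followed through lists of the pathway, for both shRNAs against control. No probe of any list passed the adjusted test. Over all tested probes 44.3% stood above control, and at an unadjusted p of 0.05 7.98% were higher and 10.4% lower. Among co-receptors and ligand carriers, all 7 tested probes of 4 genes stood above control, with a median log2 fold change of 0.60 against -0.05 over all tested probes, and 2 were higher at an unadjusted p of 0.05. It was 6 of 7 without control replicate 1, and 5 of 7 without control replicate 2 and within slide 2. LY96, the protein that holds lipopolysaccharide for TLR4, had scaled log2 signals of 1.28 to 2.01 on the 6 shRNA arrays, against 1.10 and 0.94 in the controls, and all 6 lay above both. Its log2 fold change was 0.64 (SE 0.20, adjusted p = 0.187), with 0.73 within slide 1 and 0.54 within slide 2, on the opposite side of control from TLR4 in the same arrays. CD14, which hands lipopolysaccharide to LY96, had 0.60 (SE 0.58), and LBP, the carrier of lipopolysaccharide in serum, 0.39 (SE 0.24) with opposite signs within the slides (0.95 and -0.17). CD36, a scavenger receptor that assists TLR2 and TLR6, had -3.14, -2.89 and -5.88 with EEF1D-1357 and -3.96, -7.36 and -5.90 with EEF1D-1893, against -7.12 and -6.55 in the controls. It was well above background on 2 arrays of each hairpin and on neither control, so it entered the test through the shRNA arrays alone, and no fold is read from it. The count of 7 above control and the median of that list include this CD36 probe, whose side of control the filter favoured.

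Genes for trafficking and folding of the receptors gave 10 probes above and 7 below control of 17, with a median of 0.21 and 1 higher at an unadjusted p of 0.05. With 1 probe a gene, the median of this list lay below 0. LGMN, a lysosomal protease that trims endosomal receptors, had 3.34 to 3.65 on the shRNA arrays, against 3.08 and 3.05 in the controls, a log2 fold change of 0.42 (SE 0.12, adjusted p = 0.170). All 6 arrays lay above both controls. LRRC59 had 0.39 (SE 0.19), HSP90B1, the chaperone that folds most Toll-like receptors, 0.29 (SE 0.17), and CNPY4, a co-chaperone of receptor folding, -0.22 (SE 0.16).

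Adaptor probes lay on both sides of control, 3 of 9 above and 6 below, with a median of -0.02. Of these 1 was lower at an unadjusted p of 0.05 (adjusted p = 0.154). It was not the brightest probe of its gene, so it is not among those named here. The direction of the list turned with the control: 8 of 9 stood above control within slide 1 (median 0.38) and 0 of 9 within slide 2 (median -0.30). TICAM1, the adaptor of TLR3, had -0.16 (SE 0.25) with a 95% interval of -0.74 to 0.43. MYD88, the adaptor of most other receptors, had 0.08 (SE 0.17) with an interval of -0.32 to 0.48, and both were above control within slide 1 (0.38 for TICAM1 and 0.42 for MYD88) and below it within slide 2 (-0.69 and -0.26). SARM1, an inhibitory adaptor, had -0.08 (SE 0.24), and TICAM2, which links TLR4 to TICAM1, had -0.02 (SE 0.16).

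Kinases and ubiquitin ligases were spread evenly, with 17 of 33 probes above control, a median of 0.02, and 1 higher and 3 lower at an unadjusted p of 0.05. TAB2, which brings the kinase MAP3K7 to ubiquitin chains, had -0.45 (SE 0.16, adjusted p = 0.213) and IKBKB, a kinase of the NF-kB inhibitor, had -0.32 (SE 0.14, adjusted p = 0.289), and in both all 6 shRNA arrays lay below both controls. IRAK4, the first kinase after MYD88, had 0.38 (SE 0.19), and CHUK, the partner of IKBKB, 0.41 (SE 0.21).

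Of 24 inhibitor probes 17 stood above control, with a median of 0.35, and 7 were higher and 3 lower at an unadjusted p of 0.05 (7.98% and 10.4% of all probes). The median was 0.080 within slide 1 and 0.27 within slide 2. With 1 probe a gene the groups overlapped in the mean of the list. It was 0.34 to 0.41 with EEF1D-1357, 0.30 to 0.50 with EEF1D-1893 and 0.33 to 0.44 in the controls. NFKBIA, which holds NF-kB in the cytoplasm, had 0.70 (SE 0.28, adjusted p = 0.252). It stood at 1.27 within slide 1 and 0.12 within slide 2. SIGIRR, a receptor that restrains Toll-like receptor signalling, had -1.57 (SE 0.64), with -0.92 within slide 1 and -2.22 within slide 2. Its groups overlapped, with EEF1D-1893 replicate 1 at -1.0 above control replicate 2 at -1.64. IL1RL1, also reported to restrain such signalling, had -0.50 (SE 0.17), and USP7, a deubiquitinase, -0.36 (SE 0.13). In these 2 genes every shRNA array lay below both controls.

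Transcription factors gave 12 probes above and 11 below control, with a median of 0.01 and 2 in each direction at an unadjusted p of 0.05. Within slide 1 it was 15 above and 8 below, and within slide 2 7 above and 16 below. REL, an NF-kB subunit, had -1.77 to -1.42 on the shRNA arrays, against -2.09 and -2.36 in the controls, a log2 fold change of 0.63 (SE 0.13, adjusted p = 0.130), and all 6 lay above both controls. NFKB2 had 0.46 (SE 0.22), FOS 0.34 (SE 0.19) and RELB 0.26 (SE 0.21).

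Output genes of the pathway, cytokines, chemokines and enzymes that Toll-like receptor signalling is known to switch on, stood mostly above control, with 28 of 32 probes, a median of 0.57 and 8 higher and 0 lower at an unadjusted p of 0.05 (44.3% of all probes above control, 7.98% higher and 10.4% lower). CCL20 had -1.73 to 0.61 on the shRNA arrays, against -4.26 and -2.97 in the controls, and CXCL8 had -1.70 to 0.34, against -3.45 and -2.35. In both all 6 shRNA arrays lay above both controls, with log2 fold changes of 2.97 (SE 0.70, adjusted p = 0.140) and 2.33 (SE 0.54, adjusted p = 0.140). IL1A had 1.13 (SE 0.37) and IL6 0.85 (SE 0.40). Without control replicate 2, 5 of the 32 were called higher, or 15.6%, where 9.43% of all probes were called higher. Values of the list were larger with EEF1D-1357: its median was 0.96 with EEF1D-1357 and 0.14 with EEF1D-1893, and EEF1D-1357 stood over EEF1D-1893 in 28 of 32 probes with a median difference of 0.67, of which 7 were higher at an unadjusted p of 0.05 (2.52% of all probes), and with slide as a block in 24 of 32 with a median of 0.42. Within the slides the medians were 0.82 and 0.14. Among the receptors 8 of 15 probes were higher and 7 lower with EEF1D-1357 than with EEF1D-1893.

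**Figure D5:**
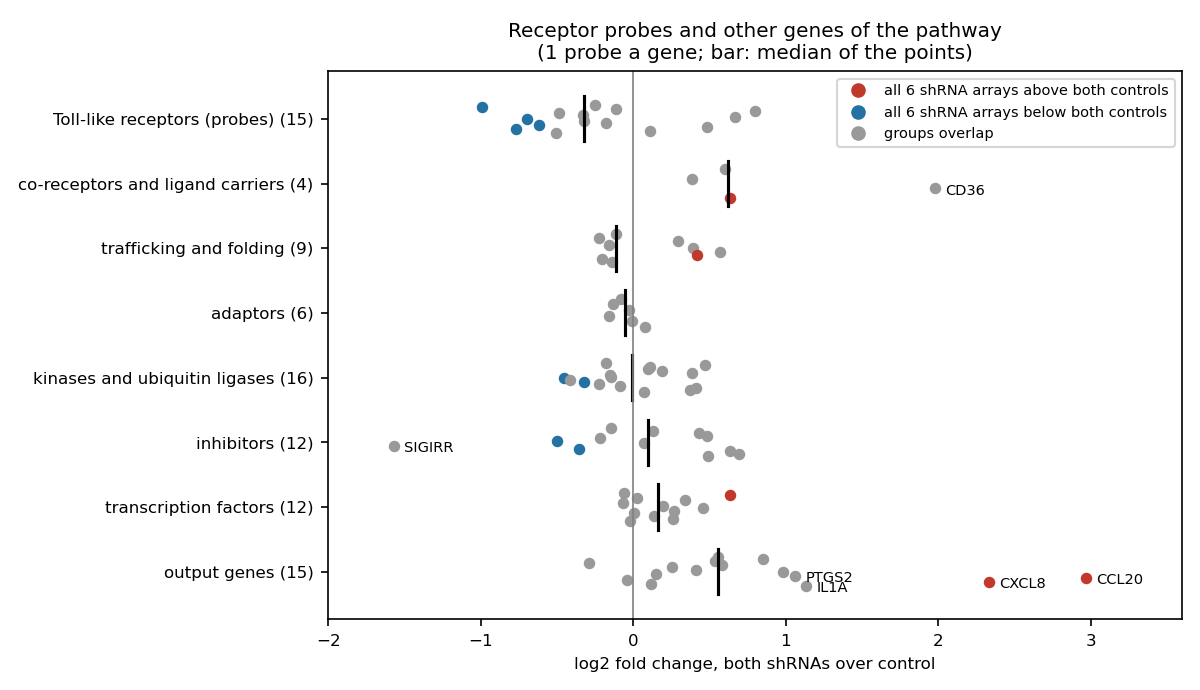
Log2 fold change for both shRNAs over control (horizontal axis) of the 15 receptor probes and of the brightest probe of each tested gene in the 7 pathway lists (rows, with the number of points in brackets). Red points have all 6 shRNA arrays above both controls, blue points all 6 below, and the black bar is the median of the points drawn. The receptors hold 4 blue and 0 red points, and CXCL8 and CCL20 stand furthest to the right.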

How the data were processed

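The deposited scanner files hold 1 Cy3 spot intensity per probe, which per the file headers was background-subtracted by Agilent Feature Extraction 10.7.3.1 (version 9.1 per the submitters' processing notes) and not normalized between arrays; other columns used are 0 or 1 flags. The authors' deposited table of log2 values (median 7.56 per array) served as an alternative. Spots of a probe were averaged, log2 values were reduced by the array's 75th percentile, 238 probes with an outlier spot were left out, and 30702 probes that exceeded background clearly (the scanner software's flag) on 2 or more arrays were tested with limma 3.58.1 in R 4.3.3 (statmod 1.5.0), with 1 mean per group over all 8 arrays, two-sided, called at an adjusted p of 0.05. The test was checked on simulated data. Probe sequences were compared with blastn 2.17.0 (word size 7, E value 0.001), leaving out matches placed within 100 kb. Positions are Btau_3.1, per the file headers.

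All member probes are named, and up to 4 genes of each pathway list by unadjusted p, 1 probe a gene; markers and likeness follow fixed lists and ranks. The members and lists were chosen with earlier results of these data known. Counts of lists without a control, by slide and by scaling were chosen after seeing the data.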

Additional observations from a re-analysis of the deposited data

How the results depend on the processing

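No probe was called in any comparison as reported, so a changed count is a gain. For both shRNAs against control, keeping probes measured on all 8 arrays called 8. With slide as a block 2214 probes were called for both shRNAs, 90 for EEF1D-1357, 4553 for EEF1D-1893 and 8 between the hairpins, and with array weights 66 between the hairpins. Leaving out 1 array at a time gave 0 to 6995, 0 to 6911, 0 to 4553 and 0 to 1 calls in the same order, the highest without control replicate 2 in the first 3. Without control replicate 1 they were 97, 90, 76 and 0. The replicate block gave 0 calls. Taken as deviations from their group means, arrays of the same number correlated at -0.07 to 0.16 and arrays of other numbers at -0.16 to 0.07. With 2 controls each control value is mirrored in sign by the other control. These ranges therefore cannot decide whether the numbers pair the arrays.

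Scaling moved the balance of unadjusted calls for both shRNAs, with 2450 higher and 3208 lower by the 75th percentile, 3296 and 2261 by the median, 2910 and 2720 by quantiles, and 2823 and 2819 after normexp.

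The alternatives were followed for 43 receptor differences. These were all tested probes for both shRNAs, and for 1 hairpin against control all but TLR2 A_73_P103071, TLR6 A_73_P034511 and TLR7 A_73_P103096, measured on 2 or 3 arrays. Between hairpins they were only the probes measured on all 8 arrays whose groups did not overlap. Of these 43 chosen differences 27 kept their direction under every alternative. TLR2 A_73_P103071 for both shRNAs turned to -0.027 with array weights, -0.19 with the replicate block and -0.50 to 0.68 without 1 array. Averaging the TLR2 probes turned A_73_P215177 to 0.071 for both shRNAs, 0.14 for EEF1D-1357 and 0.00361 for EEF1D-1893. TLR3 A_73_P324536 without 1 array spanned -1.19 to 0.21 for both, -1.03 to 0.38 for EEF1D-1357 and -1.35 to 0.049 for EEF1D-1893, with 0.38 for EEF1D-1357 by slide block or within slide 1. TLR3 A_73_P369241 between hairpins turned to -0.11 by slide block. TLR4 A_73_105309 for EEF1D-1357 was 0.000157 by median scaling, 0.00267 with array weights and -0.32 to 0.087 without 1 array. TLR5 A_73_P031017 without 1 array spanned -0.80 to 0.58 for both, -1.17 to 0.21 for EEF1D-1357 and -0.43 to 0.95 for EEF1D-1893. By slide block or within slides it was 0.21 for EEF1D-1357 and -0.43 for EEF1D-1893, and 0.63 between hairpins by slide block. TLR6 A_73_P034511 for both was 0.14 by quantiles and 0.14 in the deposited table. TLR6 A_73_P102341 for EEF1D-1893 was -0.019 with array weights, -0.10 with the replicate block, -0.082 by slide block or within slide 2 and -0.14 to 0.22 without 1 array. TLR7 A_73_P103096 for both spanned -1.93 to 1.27 without 1 array. The cause was not tested for any of these.

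Of the 15 receptor probes 6 passed for both shRNAs without control replicate 2, or 40% (22.8% of all probes), and 0 without control replicate 1 (0.316% of all probes). A setting that keeps 1 control assumes that it varies like the other arrays. So does the slide block, where each hairpin is set against the control of its own slide and the controls add nothing to the spread. Signals near background, the lower of the receptor probes, limit how small a difference can be seen.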
